A study of Rattus norvegicus with 6 samples.

Results

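The genes of antigen presentation by the major histocompatibility complex (MHC) were compared between mammary tumors of older and younger F344 rats. Members were all rows of the count table whose symbol starts with RT1-, the name of the rat MHC, together with Cd74, B2m, Tap1, Tap2, Tapbp, Psmb8, Psmb9, Psmb10, Ciita, Nlrc5 and Erap1. They came to 44 of 30562 rows with 42 distinct names, since RT1-CE15 and RT1-CE16 have a pair of rows each, and no row carried the name Psmb10. Class I heavy chains made up 23 rows, class I pathway genes 8 rows and class II genes 13 rows.

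Bulk RNA-seq was measured in 3 tumors from older rats (tumors 102, 107 and 116) and 3 tumors from younger rats (tumors 157, 158 and 167), with 1 library per tumor. F344 is an inbred rat strain. Older rats were 21 to 23 months and younger rats 4 months old when they were given the carcinogen, and ages at tumor collection are not given in the sources used here. Every rat carried a subcutaneous pellet of 50 mg MPA, a progestin released over 90 days, and received DMBA, a chemical carcinogen, once by gavage at 65 mg per kg. No group without carcinogen was part of this comparison. Younger rats were bought at 6 to 8 weeks from Envigo and older rats came from the National Institute on Aging colonies at 19 to 21 months, so that age and colony cannot be told apart. The 3 older tumors were those with adequate tissue. The labels name tumors, and the p-values measure the spread between these tumors. The labelled tissue was checked against epithelial markers: the summed level of Epcam, Cdh1, Krt8 and Krt18 was 1089 to 1188 CPM (each count relative to its library's size, after edgeR's TMM scaling) in older tumors and 1440 to 1684 CPM in younger tumors.

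MHC class I molecules consist of a heavy chain and beta-2-microglobulin and display peptides from the cytosol on nearly all nucleated cells. The immunoproteasome cuts these peptides, the Tap transporter moves them into the endoplasmic reticulum and Erap1 trims them there. Class II molecules are pairs of an alpha and a beta chain that display peptides from endosomes, mainly on dendritic cells, macrophages and B cells. The invariant chain Cd74 occupies their groove until it is removed. Ciita and Nlrc5 are the transactivators of class II and class I genes, and both act through a shared promoter module that holds an X box and a Y box.

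Sequences of that module are shown because the class II chains, whose counts differed most between the age groups, carry parts of it near their start sites. Of the 42 names, 34 had an entry among the RefSeq promoters of build GRCr8, each running from 250 bases before to 50 bases after the gene start. RT1-DMb, RT1-Hb-ps1 and Ciita had no entry among the class II members. Each window below reads 5′ to 3′ on the gene's strand, and capitals mark the Y box core GATTGG and, where its exact letters occur, the X box core AGCAAC.

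RT1-Ba (chr20:4576979-4577032, plus strand): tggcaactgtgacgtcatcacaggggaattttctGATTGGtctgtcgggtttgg
RT1-Bb (chr20:4604161-4604214, minus strand): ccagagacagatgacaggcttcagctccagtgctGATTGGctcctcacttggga
RT1-Da (chr20:4515331-4515384, plus strand): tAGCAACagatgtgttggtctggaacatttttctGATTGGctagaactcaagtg
RT1-Db1 (chr20:4560224-4560277, minus strand): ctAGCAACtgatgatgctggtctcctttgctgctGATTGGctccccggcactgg
RT1-DMa (chr20:4712381-4712434, minus strand): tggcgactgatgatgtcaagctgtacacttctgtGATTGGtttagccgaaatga
RT1-DOa (chr20:4758512-4758565, minus strand): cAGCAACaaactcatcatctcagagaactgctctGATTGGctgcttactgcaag
RT1-DOb (chr20:4627588-4627641, minus strand): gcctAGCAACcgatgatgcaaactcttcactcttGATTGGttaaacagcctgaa

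The Y box core stood on the gene's strand in 9 of the 9 RT1 class II promoters, with its first base between positions -118 and -44 from the gene start. Among all 33469 promoters, 8.02% held these 6 letters on the gene's strand and 14.8% on either strand. The X box core stood on the gene's strand in 6 of the 9, against 7.6% of all promoters (14.7% on either strand). In RT1-Da, RT1-Db1, RT1-DOa and RT1-DOb it began 30 to 33 bases before the Y box core, without overlap. The Cd74 promoter held the X box core at position -71 and not the letters of the Y box core. Among the 18 class I heavy chain promoters, the Y box core was on the gene's strand in 2 and on either strand in 10. The letters GATTGG are, on the other strand, CCAATC and so include the common CCAAT box.

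The class I pathway promoters held another element, the interferon response element, searched as GAAANNGAAA on both strands. It occurred in 5 of the 6 class I pathway promoters with an entry (B2m, Psmb8, Tap1, Tap2 and Tapbp), in 3 of the 18 class I heavy chain promoters, in 0 of the 10 class II promoters and in 3.92% of all promoters. The windows below show it in capitals for 4 of these genes, with the element of Tap1 and Psmb8 on the opposite strand, so that its reverse complement is printed. These matches describe letters in a window and do not show that a factor was bound.

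B2m (chr3:129549160-129549209, plus strand): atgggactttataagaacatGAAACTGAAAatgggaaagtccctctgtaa
Tap1 (chr20:4668635-4668684, minus strand): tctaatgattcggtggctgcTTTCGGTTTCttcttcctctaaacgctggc
Tap2 (chr20:4652308-4652357, minus strand): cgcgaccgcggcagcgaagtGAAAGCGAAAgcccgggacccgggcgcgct
Psmb8 (chr20:4657006-4657055, minus strand): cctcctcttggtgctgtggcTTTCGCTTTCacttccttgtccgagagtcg

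**Figure D1:**
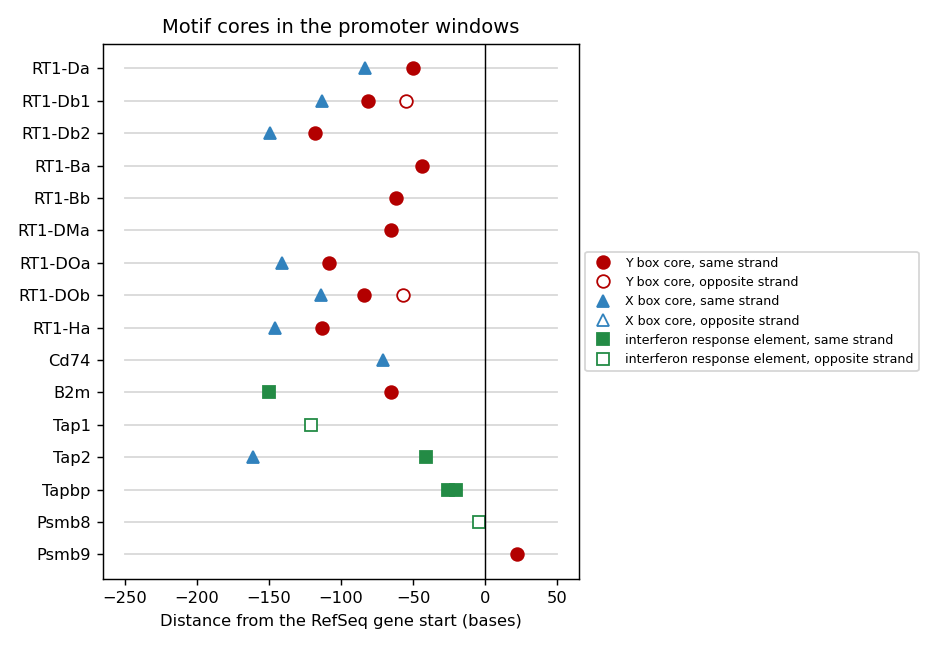
Distance in bases from the RefSeq gene start (horizontal axis) of the Y box core (circles), the X box core (triangles) and the interferon response element (squares) in the promoter windows of 16 members, filled on the gene's strand and open on the opposite strand. The 9 RT1 class II genes carry the Y box core between -118 and -44, and the squares stand only among the class I pathway genes plotted.

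The chains of both classical class II molecules, RT1-DMb, Cd74 and Ciita were higher in every older tumor than in any younger tumor, while most class I genes overlapped between the age groups. Among all genes tested, 6.57% were higher in every older tumor, and RT1-DMb overlapped when scaled by library totals alone. The size of the class II difference rested in large part on tumor 107. Values are TMM-scaled CPM, which can be compared between tumors for one gene but not between genes, since they are not per length. In bulk samples, fewer cells of a type and less RNA per cell cannot be told apart. Totals ran from 3508571 to 6525830 counts per tumor. Of the 44 members, 31 passed edgeR's filter on low counts: 14 class I heavy chains, 7 class I pathway genes and 10 class II genes. A further 3 rows, RT1-M1-2, RT1-M10-1 and RT1-N2, had 0 counts in all 6 tumors. A count of 0 allows up to 3 counts, or 0.516 to 0.988 CPM depending on the library, by counting error only.

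The RT1-B molecule is 1 of the 2 classical class II molecules of the rat. Its alpha chain RT1-Ba was at 125 CPM in tumor 102, 596 in tumor 107 and 104 in tumor 116, and at 53.7, 34.9 and 38.2 CPM in the younger tumors 157, 158 and 167. Its beta chain RT1-Bb was at 138, 436 and 75.9 CPM in the older tumors and at 51.4, 23.8 and 25.7 CPM in the younger tumors. All older tumors lay above all younger tumors for both chains, and tumor 107 stood far above the other two. The log2 fold change, older minus younger, was 2.70 for RT1-Ba (standard error, SE, 0.69, edgeR adjusted p = 0.322, with the Benjamini-Hochberg adjustment over all genes). For RT1-Bb it was 2.69 (SE 0.67, edgeR adjusted p = 0.316). Without tumor 107 the log2 fold changes were 1.44 and 1.67.

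The RT1-D molecule is the other classical class II molecule. Its alpha chain RT1-Da was at 78.0 CPM in tumor 102, 491 in tumor 107 and 96.8 in tumor 116, and at 55.9, 24.8 and 41.6 CPM in the younger tumors. Its beta chain RT1-Db1 was at 54.7, 174 and 40.1 CPM in the older tumors and at 20.8, 10.4 and 10.7 CPM in the younger tumors. The order of the tumors was again without overlap, with tumor 107 highest and tumor 157 highest among the younger ones. The log2 fold change of RT1-Da was 2.45 (SE 0.74, edgeR adjusted p = 0.37) and that of RT1-Db1 2.68 (SE 0.62, edgeR adjusted p = 0.288). Without tumor 107 they were 1.11 and 1.76. RT1-Db2, a second beta chain row, had at most 1 count in any tumor.

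Cd74, the invariant chain that guides class II molecules to endosomes, was at 334 CPM in tumor 102, 1756 in tumor 107 and 379 in tumor 116. In the younger tumors it was at 200, 110.3 and 98.1 CPM. The difference was 2.60 on the log2 scale (SE 0.71, edgeR adjusted p = 0.342), a 6.05-fold difference, and 1.39 without tumor 107. Ciita, the class II transactivator, was at 10.2, 55.7 and 14.5 CPM in the older tumors and at 5.85, 1.41 and 2.38 CPM in the younger tumors. Tumor 107 was again the highest for both genes, and tumors 102 and 116 stood closer together. Ciita had the largest class II log2 fold change, 3.05 (SE 0.80, edgeR adjusted p = 0.332), which was 1.94 without tumor 107 and 3.82 without tumor 157.

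RT1-DMa and RT1-DMb form the DM molecule, which exchanges the invariant chain remnant for antigenic peptide. RT1-DMb was at 33.9, 79.8 and 46.1 CPM in the older tumors and at 27.0, 33.5 and 31.1 CPM in the younger tumors. The groups did not overlap, but tumor 102 lay just above tumor 158, and they overlapped when scaled by library totals alone. On the log2 scale the difference was 0.81 (SE 0.35, edgeR adjusted p = 0.584) and 0.39 without tumor 107. RT1-DMa was at 22.4, 59.4 and 17.2 CPM against 17.7, 15.1 and 14.02 CPM, and tumor 116 lay below tumor 157. Older tumors exceeded younger ones by a log2 fold change of 1.08 (SE 0.48, edgeR adjusted p = 0.606), or 0.34 without tumor 107.

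The remaining class II members had few counts. RT1-DOb, the beta chain of the DO molecule that dampens DM, was at 2.31, 13.6 and 0.58 CPM in the older tumors and at 2.06, 0.18 and 2.38 CPM in the younger tumors. The log2 fold change of 1.86 (SE 1.17, edgeR adjusted p = 0.773) was -0.15 without tumor 107, so the direction rested on that tumor. The pseudogene RT1-Hb-ps1 was at 3.29, 12.5 and 10.1 CPM against 11.2, 9.51 and 10.7 CPM, with a log2 fold change of -0.26 (SE 0.49, edgeR adjusted p = 0.942). It was the only tested class II row with a negative log2 fold change. RT1-DOa and RT1-Ha were not tested, and 20 counts of RT1-DOa and 16 counts of RT1-Ha came from tumor 107.

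**Figure D2:**
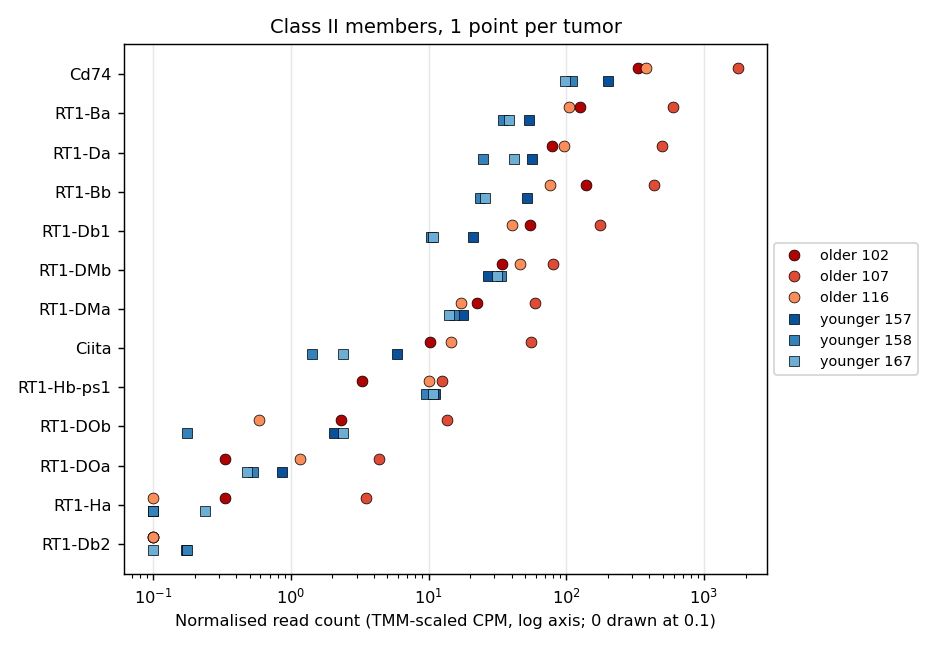
TMM-scaled CPM on a log axis of the 13 class II members in each of the 6 tumors, with circles for older and squares for younger tumors and 0 drawn at 0.1. Tumor 107 is the rightmost point of all 10 tested members, and the older tumors lie wholly to the right of the younger ones for Cd74, Ciita, RT1-Ba, RT1-Bb, RT1-Da, RT1-Db1 and RT1-DMb.

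The class I heavy chains are the peptide-binding chains of class I molecules. Many of their rows are closely similar copies whose number and sequence differ between rat strains, the counts were made on a reference of the BN strain, and how reads with several matches were treated is not given in the sources used here. The level of a single row is therefore uncertain, and the effect on these values was not tested. The row with the most counts was the second RT1-CE16 row, at 244, 362 and 309.6 CPM in the older tumors and at 261, 235 and 224 CPM in the younger tumors. It took 45.7% to 55.7% of the class I heavy chain counts of a tumor. Its age groups overlapped, and its log2 fold change was 0.35 (SE 0.25, edgeR adjusted p = 0.808).

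RT1-S3 followed with 70.1, 107 and 105 CPM in the older tumors against 81.4, 96.9 and 80.5 CPM in the younger tumors (log2 fold change 0.13, SE 0.25, edgeR adjusted p = 0.943). RT1-T24-3 was at 24.0, 78.1 and 59.2 CPM against 56.2, 38.4 and 45.1 CPM (log2 fold change 0.21, SE 0.42, edgeR). RT1-N3 was at 24.4, 42.1 and 37.2 CPM against 39.2, 18.7 and 29.0 CPM (log2 fold change 0.26, SE 0.35, edgeR). Tumor 102 was the lowest older tumor in all of these, below every younger tumor in RT1-S3 and RT1-T24-3 and inside the younger range in RT1-N3, and tumors 107 and 116 lay above the younger tumors in RT1-S3 and RT1-T24-3. RT1-CE3 showed that same order, at 9.88, 30.3 and 25.2 CPM against 16.5, 19.9 and 18.1 CPM (log2 fold change 0.27, SE 0.42, edgeR). RT1-A1 and RT1-A2, rows of the classical RT1-A locus, had log2 fold changes of 0.51 (SE 0.45) and 0.31 (SE 0.59) in edgeR's fit, with overlapping groups, and RT1-A2 was at -0.11 without tumor 158.

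In 2 of the 14 tested class I heavy chain rows all older tumors lay above all younger tumors, as in 6.57% of all genes. RT1-M3-1 overlapped when scaled by library totals alone, and RT1-M2 passed the filter through the older tumors alone. RT1-M3-1, whose product binds N-formylated peptides, was at 15.8, 19.96 and 20.1 CPM in the older tumors and at 8.43, 8.46 and 14.02 CPM in the younger tumors. Tumor 167 lay close below tumor 102. Its log2 fold change was 0.86 (SE 0.34, edgeR adjusted p = 0.531), and it was 0.81 without tumor 107. RT1-M2 was at 2.96, 8.33 and 3.48 CPM in the older tumors and at 0.69, 2.11 and 0 CPM in the younger tumors, which rests on 4, 12 and 0 counts in the latter. RT1-M2 had a log2 fold change of 2.32 (SE 0.93, edgeR adjusted p = 0.542), which was 1.70 without tumor 107 and 3.63 without tumor 158.

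Most class I pathway genes overlapped between the age groups. B2m, the light chain of all class I molecules, was at 1310.4 CPM in tumor 102, 2465 in tumor 107 and 2085 in tumor 116, and at 1300.2, 1497 and 1533 CPM in the younger tumors. Tumors 107 and 116 lay above and tumor 102 within the younger range. Its log2 fold change was 0.44 (SE 0.35, edgeR adjusted p = 0.84). Nlrc5, the class I transactivator, was at 77.7, 208 and 87.1 CPM in the older tumors and at 74.0, 41.6 and 63.2 CPM in the younger tumors. It was the pathway gene without overlap, with tumor 102 just above tumor 157, and its groups overlapped when scaled by library totals alone. Nlrc5 had a log2 fold change of 1.06 (SE 0.43, edgeR adjusted p = 0.55) and 0.47 without tumor 107.

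Tap1 and Tap2 form the peptide transporter. Tap1 was at 46.4, 128 and 84.2 CPM in the older tumors and at 118, 56.5 and 61.0 CPM in the younger tumors, with a log2 fold change of 0.14 (SE 0.43, edgeR) that was -0.26 without tumor 107. Tap2 was at 53.7, 91.7 and 74.3 CPM against 64.5, 46.5 and 33.3 CPM (log2 fold change 0.61, SE 0.33, edgeR adjusted p = 0.708). Both genes overlapped between the groups. Erap1, the trimming peptidase, was at 199.6, 226 and 177 CPM in the older tumors and at 186, 172 and 215 CPM in the younger tumors (log2 fold change 0.08, SE 0.23, edgeR). Tapbp, the tapasin that bridges Tap and the heavy chain, had 2 to 9 counts per tumor and was not tested.

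Psmb8 and Psmb9 are the inducible immunoproteasome subunits that take the place of the constitutive Psmb5 and Psmb6. Psmb8 was at 21.1, 54.8 and 50.5 CPM in the older tumors and at 54.3, 25.5 and 54.4 CPM in the younger tumors (log2 fold change -0.08, SE 0.44, edgeR). Psmb9 was at 22.1, 72.6 and 57.7 CPM against 85.7, 41.4 and 56.8 CPM (log2 fold change -0.27, SE 0.46, edgeR). Tumor 102 was the lowest of all 6 tumors for both subunits. The constitutive Psmb5, Psmb6 and Psmb7 had log2 fold changes of -0.37, -0.33 and 0.01. The log2 ratio of Psmb8 to Psmb5 within a tumor was 1.26 ± 0.411 (SD, n = 3) in older and 0.888 ± 0.639 (SD, n = 3) in younger tumors (two-sided exact permutation test, p = 0.5). That of Psmb9 to Psmb6 was 0.508 ± 0.594 (SD, n = 3) and 0.445 ± 0.369 (SD, n = 3) (two-sided exact permutation test, p = 0.9), and both were 0.9 after adjustment over the 2 ratios. The smallest p that 3 tumors against 3 allow is 0.1.

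**Figure D3:**
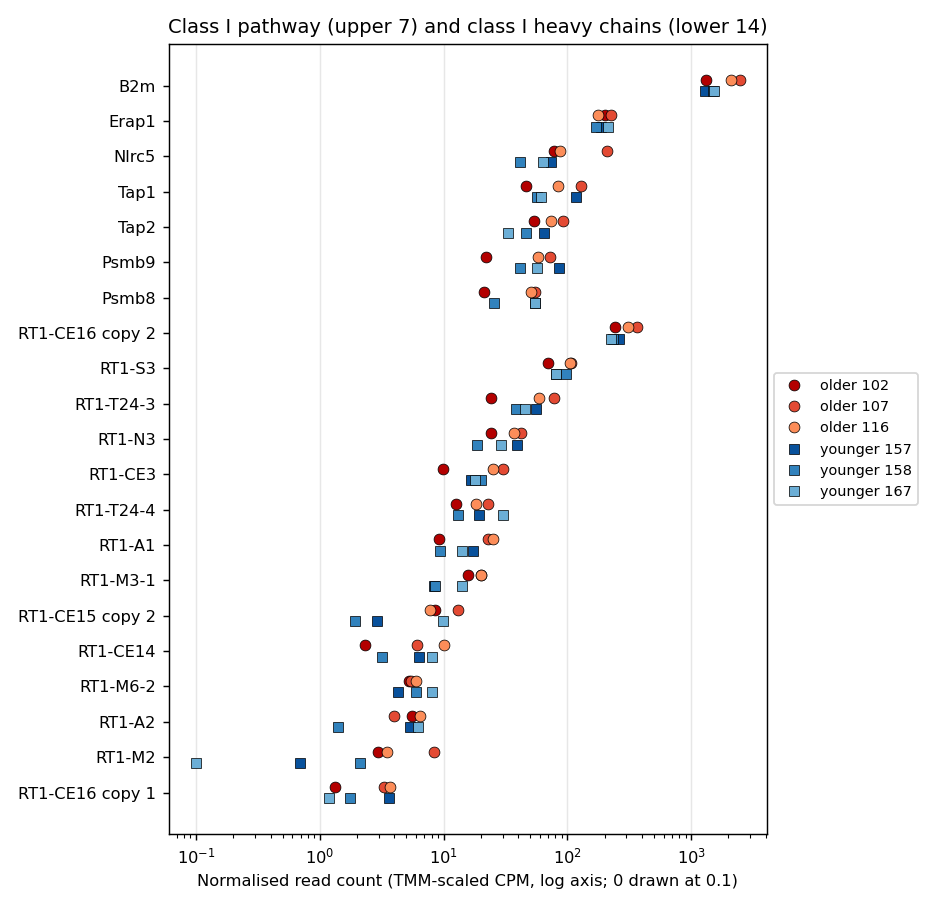
TMM-scaled CPM on a log axis of the 7 tested class I pathway genes (upper rows) and the 14 tested class I heavy chain rows (lower rows) in each tumor, circles for older and squares for younger tumors, with 0 drawn at 0.1. The groups overlap in all rows except Nlrc5, RT1-M3-1 and RT1-M2.

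Across all genes, 0 of the 31 tested members passed an adjusted p of 0.05 in edgeR's test, as did 0% of the 14060 genes tested. At an unadjusted p under 0.05, 10 members were higher in older tumors and 0 lower, beside 5.28% of all genes higher and 3.27% lower. These were 7 of 10 class II members (RT1-Ba, RT1-Bb, RT1-Da, RT1-Db1, RT1-DMb, Cd74 and Ciita), 1 of 7 class I pathway genes (Nlrc5) and 2 of 14 class I heavy chains (RT1-M2 and RT1-M3-1). RT1-M2 had under 10 counts in tumors 102, 157 and 167 and reached the filter's level (2.14 CPM, 10 counts at the median library) in the older tumors alone, so it was tested only because it was higher there. With at least 10 counts required in every tumor the count was 7 of 25 tested members, without RT1-M2 and Ciita, which were then not tested, and without RT1-DMb, beside 4.78% of all genes higher under that filter. The groups did not overlap in the same 10 members, all higher in older tumors, where 6.57% of all genes did so in that direction and 5.58% in the other. Scaled by library totals alone this count was 7, with Nlrc5, RT1-DMb and RT1-M3-1 then overlapping, and the share of all genes fell as well, to 5.46%.

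DESeq2's Wald test, the tool that the study names, gave an adjusted p under 0.05 to 6 members, all class II and higher in older tumors: RT1-Db1 (adjusted p = 0.00181), RT1-Bb (0.00376), RT1-Ba (0.00432), Cd74 (0.00752), Ciita (0.00752) and RT1-Da (0.0254). The background was 1.65% of all genes higher and 0.813% lower. Without tumor 107 this left 2 members, RT1-Ba and RT1-Db1, with 1.14% of all genes called higher. Without tumor 167 it left 3, RT1-Ba, RT1-Bb and RT1-Db1, with 1.05% of all genes, and without tumor 158 there were 4, with 1.65%. The members that lost the call had edgeR log2 fold changes of 1.11 to 1.94 without tumor 107. Without tumor 167 they were at 2.41 (Cd74), 2.88 (Ciita) and 2.46 (RT1-Da), and without tumor 158 at 2.69 (Ciita) and 2.19 (RT1-Da). None of the class I members was called by DESeq2.

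The median log2 fold change was 2.52 over the 10 tested class II members, 0.29 over the 14 class I heavy chains and 0.14 over the 7 class I pathway genes, beside -0.0033 over all genes. Without tumor 107 these medians were 1.25, 0.16 and -0.02, and the class I heavy chain median was 0.56 without tumor 102 and 0.15 without tumor 116. Summing all class I heavy chain rows to 1 feature gave 0.30. Tumor 107 had the highest level in 23 of the 31 tested members, 10 of 10 class II members among them, and in 13.8% of all genes. The lowest level was that of tumor 158 in 11 members, 6 of them class II, and that of tumor 102 in 10 members, 9 of them class I, where tumor 158 was lowest in 16.9% and tumor 102 in 27.3% of all genes.

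**Figure D4:**
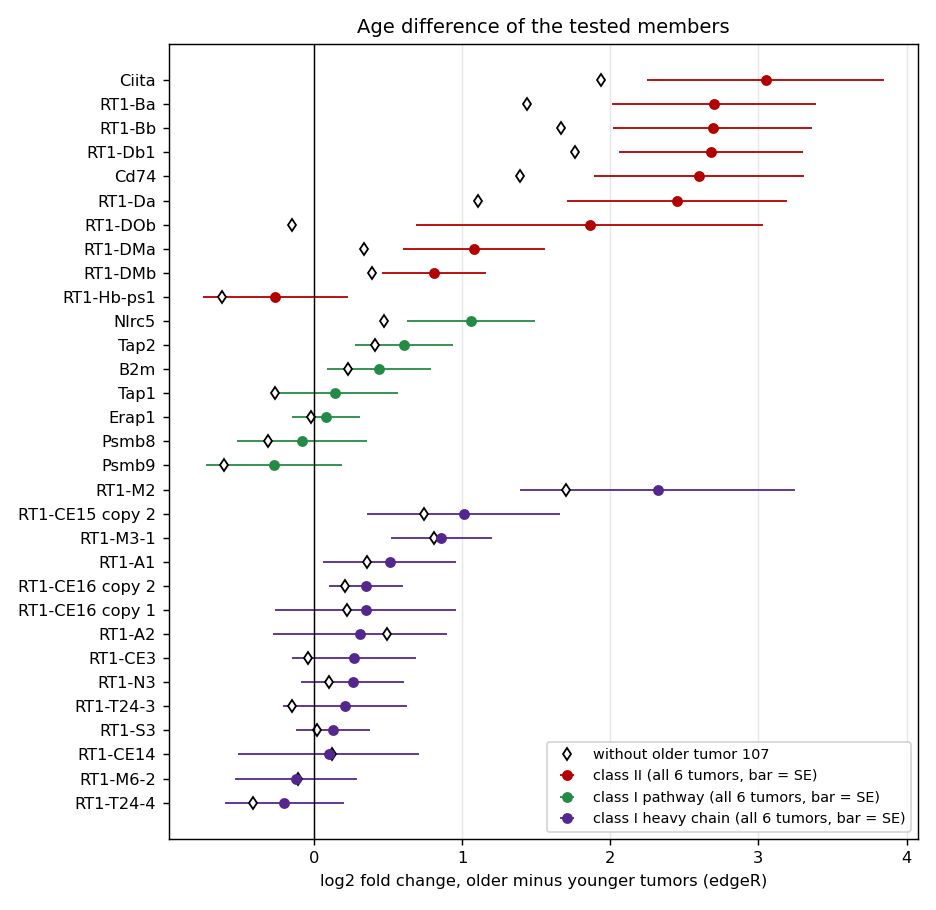
Log2 fold change, older minus younger, of the 31 tested members with its standard error (filled circles, all 6 tumors, coloured by class) and without older tumor 107 (open diamonds). Class II members reach 3.05, and the 9 positive ones are lower without tumor 107, where RT1-DOb turns to -0.15, while class I members lie between -0.27 and 1.06 except RT1-M2 at 2.32.

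As a share of all counts, the class II chains and Cd74 took 0.0686% in tumor 102, 0.349% in tumor 107 and 0.0867% in tumor 116, and 0.0485%, 0.0229% and 0.0305% in the younger tumors. The class I heavy chains took 0.0379%, 0.07% and 0.0722% in the older tumors and 0.0575%, 0.0397% and 0.0546% in the younger tumors. Class II shares did not overlap between the groups and class I shares did. Within a library, where no scaling enters, the ratio of class II to class I counts was 1.81, 4.98 and 1.20 in the older tumors and 0.843, 0.577 and 0.559 in the younger tumors, again without overlap. Partner chains kept to a narrower range: RT1-Ba to RT1-Bb counts stood at 0.905 to 1.37 in older and 1.04 to 1.49 in younger tumors, and RT1-Da to RT1-Db1 at 1.43 to 2.82 and 2.39 to 3.89. In tumor 102 both ratios were the lowest of the 6 tumors.

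Markers of leukocytes, macrophages and dendritic cells, cells that can carry class II, were examined beside these genes, and 0 of them passed the adjusted threshold in edgeR's test. DESeq2 called 9 of the 38 tested markers of all cell types higher in older tumors (Batf3, Cd8a, Clec9a, Coro1a, Itgax, Klrd1, Laptm5, Nkg7 and Ptprc) and 0 lower, beside 1.65% and 0.813% of all genes. Of the 38, Batf3 and the T cell marker Cd3e reached the filter's level in the older tumors alone and were tested only because they were higher there. Ptprc (CD45), the common leukocyte antigen, was at 203, 341 and 97.6 CPM in the older tumors and at 57.1, 29.9 and 49.2 CPM in the younger tumors, without overlap. Its log2 fold change was 2.24 (SE 0.48, edgeR adjusted p = 0.264), and DESeq2 gave it an adjusted p of 0.00162. Of 10 macrophage markers 10 had a positive log2 fold change, beside 49.6% of all genes, and 5 an unadjusted p under 0.05, beside 5.28% of all genes in that direction. Cd163 and Mrc1 were highest in tumor 102, not in tumor 107. The summed level of macrophage markers was 251 to 437 CPM in older and 119 to 183 CPM in younger tumors. Of 8 dendritic cell markers 7 were tested, 7 had a positive log2 fold change and 3 an unadjusted p under 0.05 (Batf3, Clec9a and Itgax), with sums of 42.4 to 204 CPM and 26.6 to 38.9 CPM. Xcr1, a receptor of cross-presenting dendritic cells, was at 28.1 CPM in tumor 107 and at most 1.03 CPM in any other tumor. Of 6 B cell markers 1 was tested, and the defining markers Ms4a1 and Cd79b were at 0 in all tumors. The sums of B cell markers were 3.95 to 9.21 CPM and 2.11 to 6.19 CPM and overlapped. NK cell markers summed to 239 CPM in tumor 107, to 33.9 and 19.4 CPM in tumors 102 and 116 and to 4.23 to 9.63 CPM in younger tumors. T cell markers summed to 83.8 CPM in tumor 107, of which Cd8a made up 71.9 CPM. Without Cd8a the 5 other T cell markers with a row summed to 6.26, 11.8 and 14.3 CPM in tumors 102, 107 and 116 and to 2.82 to 5.46 CPM in younger tumors, so that tumor 107 was not the highest. The part of these cells in the class II difference was not tested.

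Set against Ptprc within each tumor, RT1-Ba, RT1-Bb, RT1-Da, RT1-Db1, Cd74 and Ciita overlapped between the age groups. The ratio of Cd74 to Ptprc counts was 1.65, 5.14 and 3.88 in the older tumors and 3.5, 3.68 and 2.00 in the younger tumors. Tumor 102 was the lowest and tumors 107 and 116 the highest, so the groups overlapped. For RT1-Ba, RT1-Bb, RT1-Da, RT1-Db1, Cd74 and Ciita the log2 ratio to Ptprc differed between older and younger tumors by -0.11 to 0.61. The two-sided exact permutation tests gave p from 0.4 to 1.0, all 1.0 after adjustment over the 6 ratios. This comparison was added after the data had been seen, and its 6 members are those that DESeq2 called. The smallest p that 3 tumors against 3 allow is 0.1, so these tests could not pass the threshold. They do not show that a difference per Ptprc is absent. Per Laptm5, another leukocyte marker, the 6 differences were all positive, from 0.03 (RT1-Da) to 0.74 (Ciita), with overlapping groups. The smallest p there was 0.2 (RT1-Db1, two-sided exact permutation test). Of the other 4 tested class II members, RT1-DOb overlapped per Ptprc as well, and 3 were lower per Ptprc in every older tumor, a description with no test. Ptprc itself was higher in every older tumor (log2 fold change 2.24), so a gene that changed less comes out lower per Ptprc. The share of all genes lower per Ptprc is not given here, so nothing particular to these members is read from the count. RT1-DMa stood at 0.110, 0.174 and 0.177 per Ptprc count in the older tumors and at 0.310, 0.506 and 0.285 in the younger tumors. RT1-DMb stood at 0.167, 0.234 and 0.4722 against 0.4729, 1.12 and 0.633, with tumors 116 and 157 nearly equal, and RT1-Hb-ps1 at 0.0162 to 0.103 against 0.196 to 0.318. The ratio of Cd74 to the epithelial keratin Krt8 was 2.20, 18.2 and 1.44 in the older and 0.723, 0.4 and 0.303 in the younger tumors. Krt8 itself was at 96.7 to 263 CPM in older and 276 to 324 CPM in younger tumors, so its lower level adds to this gap. Its log2 fold change was -0.78, beside -0.52 for Epcam, -0.38 for Cdh1 and -0.09 for Krt18. Ratios to these other epithelial markers are not given here.

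**Figure D5:**
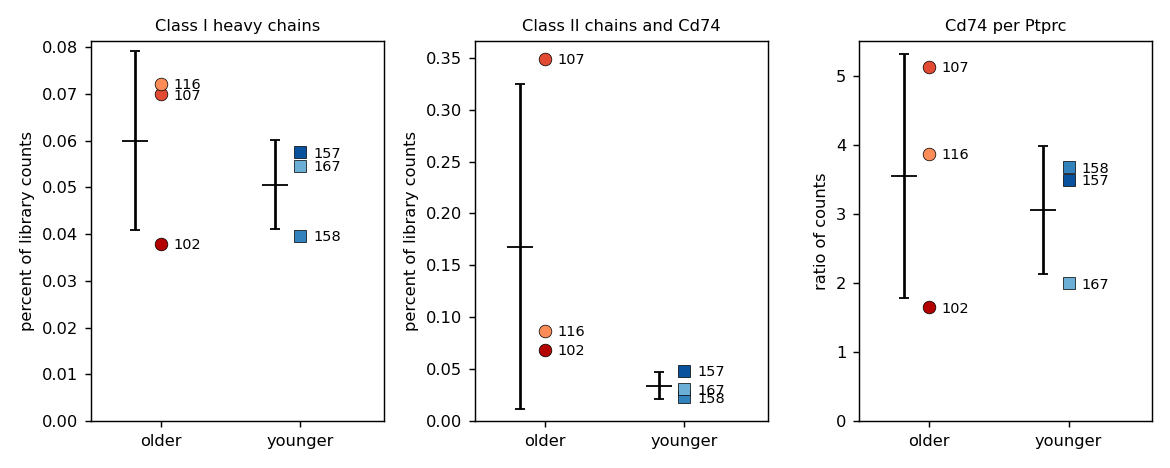
Percent of library counts of the class I heavy chains (left) and of the class II chains with Cd74 (middle), and the ratio of Cd74 to Ptprc counts (right), with 1 labelled point per tumor and the group mean ± SD (n = 3) beside the points. Only the class II share separates the groups, with tumor 107 at 0.349%, while Cd74 per Ptprc overlaps.

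Other genes of the pathway were described from a list of 40, of which 37 had a row and 34 were tested. At an unadjusted p under 0.05, 6 were higher in older tumors and 0 lower, beside 5.28% and 3.27% of all genes, and the median log2 fold change was 0.03 beside -0.0033. In edgeR's test 0 passed the adjusted threshold, and DESeq2 called 3 higher (Cd8a, Ctss and Ifngr2) and 0 lower, where its share over all genes was 1.65% higher. By role they were 1 of 6 endosomal processing genes, 2 of 9 tested genes of transcription and interferon signalling, 1 of 2 genes of MHC turnover, 1 of 2 tested co-stimulatory genes and 1 tested T cell co-receptor. None of the 10 tested peptide loading and trimming genes or the 4 class I-like genes was among them.

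Ctss, the endosomal protease that degrades the invariant chain, was at 140.0, 91.9 and 44.1 CPM in the older tumors and at 21.5, 41.2 and 19.5 CPM in the younger tumors (log2 fold change 1.74, SE 0.48, edgeR adjusted p = 0.343). Tumor 116 lay just above tumor 158. Ifngr2, a chain of the interferon gamma receptor, was at 93.9, 79.4 and 73.4 CPM against 37.7, 40.5 and 50.8 CPM (log2 fold change 0.94, SE 0.24, edgeR adjusted p = 0.322). It was 0.96 without tumor 107, and tumor 107 was not its highest tumor. The other chain, Ifngr1, was at 662, 132.7 and 172 CPM against 71.2, 132.6 and 65.6 CPM, with tumor 102 far above the others (log2 fold change 1.84, SE 0.64, edgeR adjusted p = 0.452, and 0.76 without tumor 102).

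Marchf1, a ubiquitin ligase that removes class II from the cell surface, was at 10.5, 15.4 and 4.84 CPM in the older tumors and at 3.44, 2.11 and 3.56 CPM in the younger tumors (log2 fold change 1.75, SE 0.53, edgeR adjusted p = 0.373). Cd86, a co-stimulatory ligand of antigen-presenting cells, was at 3.29, 20.2 and 8.13 CPM against 1.89, 4.05 and 2.14 CPM (log2 fold change 1.96, SE 0.70, edgeR adjusted p = 0.466, and 1.09 without tumor 107). Cd8a, the co-receptor that binds class I, was at 9.88, 71.9 and 6.58 CPM against 4.47, 2.29 and 2.38 CPM (log2 fold change 3.26, SE 0.95, edgeR adjusted p = 0.358, and 1.41 without tumor 107). Cd86 overlapped between the groups, and Marchf1 and Cd8a did not. The DNA-binding partners of Ciita, Rfx5, Rfxap and Rfxank, had log2 fold changes of -0.26, 0.05 and -0.10 with overlapping groups.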

How the data were processed

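Bulk RNA-seq of 6 F344 rat mammary tumors was analysed, 3 from older and 3 from younger rats. Per the labels, the authors trimmed reads, aligned them with STAR, marked duplicates and deposited raw read counts per gene from HTSeq 0.13.5, with mRatBN 7.2 named as genome build. The labels give polyA RNA and reads of 100 bases, and the protocol ribosomal RNA depletion and 150 bases. Of the rows, 4367 had no name and stayed in the library sizes and tests.

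The age groups were compared with edgeR 4.0.16 under R 4.3.3 (filterByExpr, TMM, quasi-likelihood test, Benjamini-Hochberg adjustment, threshold 0.05). Standard errors were calculated back from the F statistic. DESeq2 1.42.0 and limma 3.58.1 were alternatives. Log2 CPM used a prior count of 2. The statistics were tested on simulated data. Totals of 3508571 to 6525830 counts put 3 counts at 0.516 to 0.988 TMM-scaled CPM. Members, lists, tests and alternatives were chosen with earlier results of these data known. Every member that passed the filter could be named. Values are given for each tumor for tested class I pathway and class II members, for the 5 class I heavy chain rows with the highest mean CPM and for members or listed genes with an unadjusted p under 0.05. All 42 names are symbols in the RefSeq gene list of GRCr8, whose build differs from that of the counts. GRCr8 coordinates are given for promoters only.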

Additional observations from a re-analysis of the deposited data

How the results depend on the processing

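Under 13 alternatives (DESeq2's size factors, library totals, DESeq2's Wald test, limma-voom, a minimum of 10 counts in every tumor, all rows with at least 1 count, without the 10 most abundant genes, and without each tumor), and those for ratios and shares, 427 of 461 values kept their direction and their side of the threshold or, for counts and untested values, moved by less than 1.5 times or the spread between tumors. This tally covered 24 of the 31 tested members. As 0 members passed the adjusted threshold in edgeR, a member mostly counted as kept when its direction held. Sizes could still move: the log2 fold change of RT1-Da went from 2.45 to 1.11 without tumor 107 and counted as kept. So did the age difference in class II share, from 0.134 to 0.0437 percent of counts, within a spread of 0.111 that includes tumor 107. Members with an adjusted p under 0.05 numbered 0 in edgeR and limma-voom and 6 with DESeq2. Leaving out 1 tumor gave 2 to 6 members with DESeq2, where 0.893% to 2.4% of all genes were called higher. In edgeR it gave 6 to 14 members with an unadjusted p under 0.05, and the share of all genes in those fits is not given here. Both counts were lowest without tumor 107. The median log2 fold change then ran from 1.25 to 2.89 for class II and from -0.0205 to 0.433 for the class I pathway, lowest for both without tumor 107, and from 0.15 (without tumor 116) to 0.56 (without tumor 102) for the class I heavy chains. The log2 ratio of Psmb9 to Psmb6 differed by -0.28 to 0.27. The direction turned when 1 tumor was left out for RT1-DOb (-0.15 to 2.39), Psmb8 (-0.36 to 0.24), Psmb9 (-0.61 to 0.0899), Tap1 (-0.26 to 0.55), Erap1 (-0.0205 to 0.17, and -0.0091 under library totals), RT1-CE3 (-0.0393 to 0.61), RT1-T24-3 (-0.15 to 0.56), RT1-A2 (-0.11 to 0.65), RT1-CE14 (-0.44 to 0.48), RT1-M6-2 (-0.33 to 0.12), RT1-T24-4 (-0.44 to 0.16) and RT1-Hb-ps1 (-0.62 to 0.11). It also turned for the log2 ratios to Ptprc of RT1-Ba (-0.22 to 0.52), RT1-Da (-0.51 to 0.44, and 0.02865 per Laptm5) and Cd74 (-0.22 to 0.60), a comparison added after the data had been seen. The cause was not tested. No paired analysis was possible because the age groups share no replicate numbers. The planned ratio of Psmb10 to Psmb7 was not run because no row carried the name Psmb10. With 3 tumors a group and 3508571 to 6525830 counts per tumor, 6 of the 31 tested members had under 10 counts in at least 1 tumor, and counting error limits their values most.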

Other observations

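Among the class I heavy chain rows that were not tested, RT1-T18 had 4, 10 and 19 counts in tumors 102, 107 and 116 and 5, 1 and 1 counts in tumors 157, 158 and 167. The first RT1-CE16 row was at 1.32, 3.29 and 3.68 CPM in the older tumors and at 3.61, 1.76 and 1.19 CPM in the younger tumors, where the second row of the same name was above 223 CPM throughout. The first RT1-CE15 row had 1 count in tumor 102 and 0 elsewhere, and the second was at 8.56, 13.2 and 7.74 CPM in the older tumors and at 2.92, 1.94 and 9.98 CPM in the younger tumors. Its log2 fold change of 1.01 (SE 0.65, edgeR adjusted p = 0.778) was 2.00 without tumor 167. Tapbp, which every class I loading complex uses, had 5, 9 and 6 counts in the older and 3, 2 and 5 counts in the younger tumors, beside 141 to 685 counts of Tap1.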
